A study of Homo sapiens with 16 samples.

Results

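THP-1 cells, a human acute monocytic leukemia line driven by the MLL-AF9 fusion, become adherent macrophage-like cells when phorbol-12-myristate-13-acetate (PMA) is added. Here the transcriptome of PMA-treated cells labelled shUHRF1 was set against that of PMA-treated cells labelled shNC, the control hairpin. These were 4 of the 16 RNA-seq libraries of the study, which also held shDNMT1 and shDNMT3B lines and a DMSO arm of every line, with 2 libraries in each of the 8 groups. Libraries were assigned by the line and treatment named in the sample titles and in the columns of the count table, and every gene of the table was considered. Another label of the same samples, the free-text description, named a group unlike the title for 12 of the 16 samples and was not used.

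The shUHRF1 PMA group was THP-1 carrying a lentiviral hairpin against UHRF1, selected with puromycin and kept for 48 h in 100 ng/ml PMA. The shNC PMA group carried the control hairpin and shared the vector, the selection, the PMA dose and the 48 h. The shUHRF1 DMSO and shNC DMSO groups were the same lines in vehicle, and the shDNMT1 PMA and shDNMT3B PMA groups were 2 further lines in PMA, labelled with hairpins against DNMT1 and DNMT3B. Each line was a single selected population, so a difference between hairpins and a difference between lines cannot be told apart. No label says that the 2 libraries of a group came from separate cultures, and the p-values measure only the spread between these libraries. Because RNA came from bulk cells, fewer cells of a type and less RNA per cell could not be separated.

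UHRF1 binds hemimethylated DNA behind the replication fork and brings in DNMT1, which copies the methylation pattern to the new strand. PMA activates protein kinase C, after which THP-1 cells leave the cell cycle and switch on macrophage genes. Macrophages also depend on metabolic programs that respond to supply, among them the ATF4 program, which makes and imports amino acids, and the SREBP2 program, which makes and imports cholesterol.

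The libraries labelled shUHRF1 PMA held 21286757 and 14873941 counts and the shNC PMA libraries 22852559 and 14513867. Replicate 1 was the deeper library in both groups and had the larger mitochondrial share, at 9.54% and 3.92% in the shUHRF1 PMA libraries and 10.3% and 4.76% in the shNC PMA libraries. Macrophage markers were abundant in all 4, with a summed level of 88431 and 71239 CPM (counts scaled to library size by the trimmed mean of M values) in the shUHRF1 PMA libraries and 74032 and 59504 in the shNC PMA libraries over 42 genes. Of 15 erythroid markers, 13 and 14 were at 0 in the shUHRF1 PMA libraries, against 15 and 14 in the shNC PMA libraries. Of 20 lymphoid markers 12 and 12 were at 0 in the shUHRF1 PMA libraries, against 11 and 11 in shNC PMA. Dendritic markers summed to 204 and 181 CPM in shUHRF1 PMA and 326 and 261 CPM in shNC PMA, and epithelial and fibroblast markers to 17.3 and 21.6 CPM against 8.51 and 9.60 CPM. The part of these other cell types in the results was not tested.

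The mRNA of the targeted gene did not follow its label. The study checked the knockdown of its target proteins by western blot, and the counts used here hold no protein values. UHRF1 (ENSG00000276043, hg38 chromosome 19, 4903080 to 4962154) had 9.62 and 12.2 CPM in the libraries labelled shUHRF1 PMA, against 4.62 and 7.43 CPM in the shNC PMA libraries. Both shUHRF1 values lay above both shNC values, with a log2 fold change of 0.87 (SE 0.29, n = 2 each) and an edgeR adjusted p of 0.129. With the replicate number as a block the adjusted p was 0.000375, a call in the direction opposite to a knockdown. In DMSO, UHRF1 had 72.0 and 91.2 CPM in the libraries labelled shUHRF1 and 87.1 and 123 CPM in shNC, a log2 fold change of −0.36 with an adjusted p of 0.605. Every direction below is therefore that of the libraries labelled shUHRF1, not of a reduced UHRF1 mRNA. The shDNMT1 PMA libraries had 32.2 and 36.6 CPM and the shDNMT3B PMA libraries 26.2 and 34.0 CPM, so the shUHRF1 PMA level lay below those of the other hairpin lines (log2 fold change −1.56, adjusted p = 0.00136). The mRNA of their own targets did not follow the labels after PMA either. DNMT1 had 84.1 and 99.7 CPM in shDNMT1 PMA and 56.9 and 78.0 CPM in shNC PMA, and DNMT3B had 2.74 and 3.19 CPM in shDNMT3B PMA and 1.26 and 1.59 CPM in shNC PMA, so these are named below as lines by their labels only.

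Other genes of the methylation machinery showed small differences. Of 21 tested, HELLS, an SNF2-family remodeler that helps DNMT1 reach packed chromatin, was the only one that passed the test. HELLS had 5.15 and 4.03 CPM in the shUHRF1 PMA libraries and 1.73 and 1.95 CPM in the shNC PMA libraries (log2 fold change 1.33, SE 0.24, edgeR adjusted p = 0.0106), and its call was lost in at least one fit without one library. The block called 5 higher and 3 lower, where it called 8.35% and 6.88% of all genes. DNMT1 had a log2 fold change of 0.42 with an adjusted p of 0.552, and 0.0210 with the replicate block. DNMT3A, a de novo methyltransferase, had a log2 fold change of 0.54 with an adjusted p of 0.137, and 0.0105 with the block. DNMT3B differed by 0.20 (adjusted p = 0.801).

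Across the transcriptome the libraries labelled shUHRF1 lost transcripts for amino acid supply and for cholesterol synthesis and gained transcripts of some genes for lipid storage and uptake, sugar use and matrix breakdown. Of 16503 genes tested, 336 were higher (2.04%) and 265 were lower (1.61%) at an edgeR adjusted p under 0.05 and a fold change over 1.5, while the median log2 fold change of all genes was 0.02. Fold changes were over 2 for 213 of the higher and 148 of the lower genes, and over 4 for 53 and 36. With the replicate number as a block the counts were 947 (5.74%) and 673 (4.08%), and these included all 336 and all 265 genes. The libraries of each group did not overlap for any called gene, whereas among all genes both shUHRF1 PMA libraries lay above both shNC PMA libraries for 23.2% and below for 22.04%. Of the 336 higher genes, 112 were also called higher than the mean of shDNMT1 PMA and shDNMT3B PMA, and 35 were called lower. Of the 265 lower genes, 59 were also called lower than that mean and 19 were called higher. Without a fold limit, 5.5% of all genes were called higher than that mean and 5.75% lower. Both comparisons share the shUHRF1 PMA libraries. Fits that left out one library called 112 higher and 72 lower genes without shUHRF1 PMA replicate 1, 103 and 66 without shUHRF1 PMA replicate 2, 53 and 57 without shNC PMA replicate 1, and 56 and 73 without shNC PMA replicate 2. All 336 and 265 genes kept their sign in these 4 fits, and 35 and 43 of them kept their call.

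**Figure D1:**
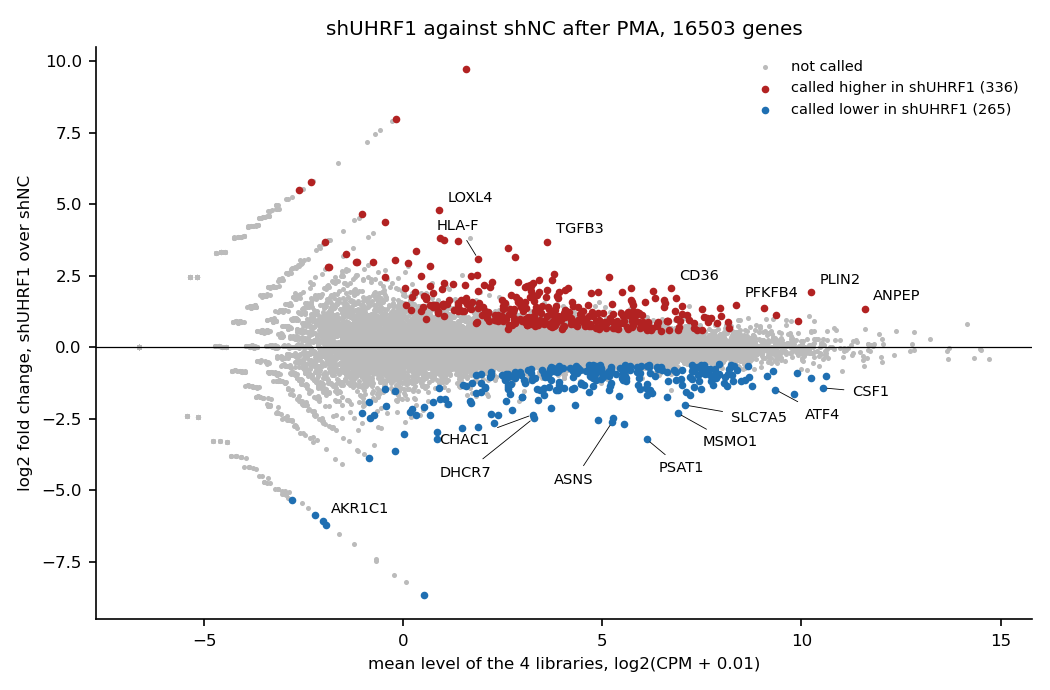
Each point is a gene, with its mean level in the 4 PMA libraries (log2 of CPM plus 0.01, horizontal axis) and its log2 fold change of shUHRF1 over shNC (vertical axis). The 336 genes called higher are red and the 265 called lower are blue, and PSAT1, ASNS and DHCR7 sit more than 2 units below 0, while PLIN2, CD36 and TGFB3 sit well above it.

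The broadest loss was in the amino acid response governed by ATF4, the transcription factor whose mRNA is translated when amino acids run short or another stress phosphorylates eIF2alpha. Of 44 members tested, 28 were lower and 16 were not called, against 1.65% of all genes lower at an adjusted p under 0.05 without a fold limit, and the median log2 fold change of the list was −0.87. With the block 35 members were lower, where 8.35% of all genes were higher and 6.88% lower, and fits without one library called between 12 and 19, with a median between −0.95 and −0.85. Both shUHRF1 PMA libraries lay below both shNC PMA libraries for 40 of the 44, against 22.04% of all genes. ATF4 itself had 329 and 357 CPM in the shUHRF1 PMA libraries, against 928 and 984 CPM in the shNC PMA libraries (log2 fold change −1.48, SE 0.20, edgeR adjusted p = 0.00145).

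Serine synthesis showed the largest changes of this program. PSAT1 (ENSG00000135069, hg38 chromosome 9, 78297125 to 78330093), the aminotransferase of the serine pathway, had 12.7 and 14.2 CPM in the shUHRF1 PMA libraries, against 125 and 124 CPM in the shNC PMA libraries. This difference of −3.21 on the log2 scale (SE 0.20) had an edgeR adjusted p of 1.56e-05, and the libraries within each group lay close together. PHGDH, the first enzyme of the pathway, had 12.8 and 12.2 CPM in shUHRF1 PMA and 85.2 and 76.2 CPM in shNC PMA (log2 fold change −2.68, SE 0.26, adjusted p = 0.000170). ASNS, which makes asparagine, had 12 and 9.45 CPM in shUHRF1 PMA and 74.6 and 56.1 CPM in shNC PMA (log2 fold change −2.60, SE 0.32, adjusted p = 0.000851). The groups were far apart for each of these enzymes.

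Some amino acid transporters and feedback genes of the list were among the 28 called, and others were not. SLC7A5, the large neutral amino acid transporter, had 52.9 and 53.8 CPM in shUHRF1 PMA, against 240 and 192 CPM in shNC PMA (log2 fold change −2.02, SE 0.19, edgeR adjusted p = 0.000147). SLC7A1, which carries arginine and lysine, changed by −1.33 (adjusted p = 0.000147). CHAC1, which degrades glutathione and is a sensitive ATF4 target, had 3.28 and 2.92 CPM in shUHRF1 PMA and 16.3 and 15.4 CPM in shNC PMA (log2 fold change −2.35, SE 0.21, adjusted p = 9.51e-05). TRIB3, a pseudokinase that restrains ATF4, had 18.8 and 19.1 CPM in shUHRF1 PMA and 54.3 and 52.1 CPM in shNC PMA, a change of −1.49. SESN2, which restrains mTORC1, changed by −1.37, and the stress regulator NUPR1 by −2.03. The tRNA synthetases AARS1, GARS1 and WARS1 fell by 1.09, 1.19 and 1.03 on the log2 scale. DDIT3 (CHOP) was the weakest of those named, at −0.72 with an adjusted p of 0.0495. Of the genes of the ATF4 program named here, NUPR1, GARS1, WARS1 and DDIT3 lost their call in at least one of the fits without one library, and the others kept theirs in all 4.

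The binding sequence of ATF4 with a C/EBP partner, the CARE motif TGATGNAA, was looked for on both strands of the RefSeq promoters (GRCh38.p14, 250 bases before to 50 after the start). It was found in 8 of the 23 lower members with a promoter entry (34.8%) and in 2 of the 13 members not called lower (15.4%), against 3.67% of 27305 promoters and 1.83% of the 11736 promoters of genes tested. A match describes letters in a window and is not a measured binding site. Because the list was drawn up as genes of the ATF4 program, its share beside that of all promoters describes the list. For the members below, which fell and hold a match, 100 bases around it are shown 5′ to 3′ on the gene's strand with the match in capitals. CHAC1 lies at chr15:40953221-40953320 (+), ASNS at chr7:97872423-97872522 (−) and AARS1 at chr16:70289640-70289739 (−).
CHAC1: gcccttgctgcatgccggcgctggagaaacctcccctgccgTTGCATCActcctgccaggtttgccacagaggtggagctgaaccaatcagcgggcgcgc
ASNS: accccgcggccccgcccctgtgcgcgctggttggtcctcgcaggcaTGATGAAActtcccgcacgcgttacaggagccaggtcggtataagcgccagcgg
AARS1: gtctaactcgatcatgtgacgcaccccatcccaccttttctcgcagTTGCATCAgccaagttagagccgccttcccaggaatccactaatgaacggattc

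Cholesterol and fatty acid synthesis fell together. Of 32 members tested, 18 were lower and 14 were not called, against 1.65% of all genes lower, or 6.88% with the block. The median log2 fold change of the list was −1.06. Both shUHRF1 PMA libraries lay below both shNC PMA libraries for 28, against 22.04% of all genes. With the block 22 were lower, and fits without one library called between 10 and 12, with a median between −1.13 and −0.94. DHCR7 (ENSG00000172893, hg38 chromosome 11, 71428193 to 71452868), the last enzyme of cholesterol synthesis, had 3.0 and 2.85 CPM in the shUHRF1 PMA libraries, against 18.03 and 14.7 CPM in the shNC PMA libraries. Its log2 fold change was −2.48 (SE 0.20, edgeR adjusted p = 6.35e-05). No library of either group came near the other group for this gene.

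The fall ran along the pathway. HMGCS1, at its entry, changed by −1.45 (SE 0.18, edgeR adjusted p = 0.000958). IDI1, which makes isoprenoid units, had 22.4 and 17.7 CPM in shUHRF1 PMA and 65.1 and 64.7 CPM in shNC PMA (log2 fold change −1.70). MSMO1, a sterol oxidase, had 44.4 and 35.5 CPM in shUHRF1 PMA and 228 and 165 CPM in shNC PMA (log2 fold change −2.30, SE 0.32). Among the fatty acid desaturases, SCD changed by −1.72 and FADS2 by −2.78. The regulator SREBF2, which encodes SREBP2, changed by −1.39 (SE 0.17, adjusted p = 0.000691) and its retention partner INSIG1 by −1.01. Of the genes named here and above for this pathway, FADS2 and INSIG1 lost their call in at least one fit without one library.

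**Figure D2:**
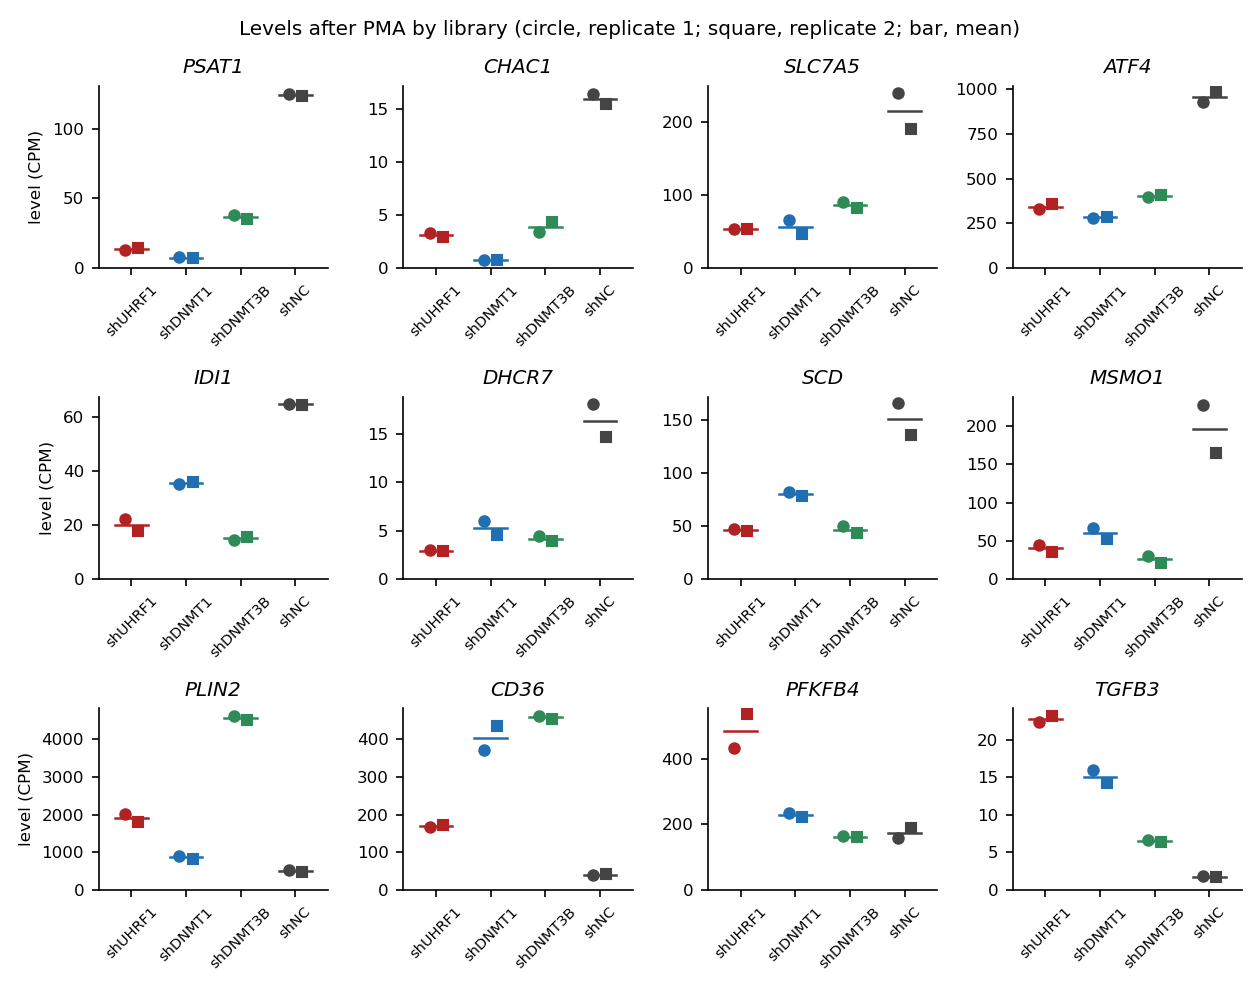
Levels (CPM, vertical axes starting at 0) of 12 genes after PMA, by line, with circles for replicate 1, squares for replicate 2 and bars for the mean of the 2 libraries. For PSAT1, SLC7A5, ATF4, IDI1, DHCR7, SCD and MSMO1 the shUHRF1, shDNMT1 and shDNMT3B libraries all lie below the shNC libraries, and PFKFB4 and TGFB3 are highest in shUHRF1.

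After PMA the shNC libraries lay above those of the 3 hairpin lines for leading genes of both programs. ATF4 had 329 and 357 CPM in shUHRF1 PMA, 279 and 287 CPM in shDNMT1 PMA and 400 and 409 CPM in shDNMT3B PMA, all below the 928 and 984 CPM of shNC PMA. DHCR7 had 3.0 and 2.85 CPM in shUHRF1 PMA, 5.97 and 4.58 CPM in shDNMT1 PMA and 4.40 and 3.90 CPM in shDNMT3B PMA, against 18.03 and 14.7 CPM in shNC PMA. Set directly against the mean of the other hairpin lines, the shUHRF1 PMA libraries had a list median of −0.01 for the ATF4 program, with 7 members higher and 5 lower, and −0.16 for the cholesterol and fatty acid list, with 3 higher and 3 lower. In that comparison 5.5% of all genes were higher and 5.75% lower, 774 (4.69%) and 885 (5.36%) with the fold limit, and 1184 (7.17%) and 1397 (8.47%) with the fold limit and the block. In DMSO, ATF4 had 945 and 701 CPM in shDNMT3B, above the 682 and 524 CPM of shNC. It had 315 and 268 CPM in shUHRF1 DMSO and 251 and 245 CPM in shDNMT1 DMSO. DHCR7 in DMSO had 9.52 and 9.57 CPM in shDNMT3B, below the 26.5 and 28.3 CPM of shNC. Whether the PMA levels stand out in the shNC line or are shared by the 3 hairpins cannot be told apart with 1 control line.

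Antioxidant genes of the NRF2 pathway followed in part, where 1.65% of all genes were lower (block, 6.88%). Of 25 tested, 5 were lower and the list median was −0.39, 13 were lower with the block, and fits without one library called 1 or 2. TXNRD1, a thioredoxin reductase, had 186 and 194 CPM in shUHRF1 PMA and 420 and 446 CPM in shNC PMA (log2 fold change −1.19, SE 0.15, edgeR adjusted p = 0.00118). GSR, which recycles glutathione, changed by −0.87, SRXN1 by −0.75 and OSGIN1 by −1.47. AKR1C1, an aldo-keto reductase, had 0 counts in both shUHRF1 PMA libraries and 15 in the shNC PMA libraries together, at least 4.87-fold lower when 3 counts over the group are taken as the floor. AKR1C1 has close paralogs, so the assignment of its reads is uncertain. TXNRD1 alone of these 5 kept its call in every fit without one library.

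Genes of lipid uptake and storage moved the other way, where the block called 8.35% of all genes higher and 6.88% lower. Of 26 genes controlled by LXR or PPARG, 7 were higher (2.04% of all genes) and 1 was lower, 11 and 3 with the block, and fits without one library called 3 to 6 higher. PLIN2 (ENSG00000147872, hg38 chromosome 9, 19108375 to 19149290), which coats lipid droplets, had 2022 and 1799.9 CPM in the shUHRF1 PMA libraries, against 539 and 471 CPM in the shNC PMA libraries (log2 fold change 1.92, SE 0.18, edgeR adjusted p = 0.000139). CD36, the scavenger receptor for oxidized lipoproteins and fatty acids, had 169 and 172 CPM in shUHRF1 PMA and 40.0 and 41.5 CPM in shNC PMA (log2 fold change 2.06, SE 0.21, adjusted p = 0.000237). The replicates of each group were nearly equal for both genes.

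FABP4, a fatty acid carrier of macrophages and adipocytes, had 85.6 and 58.3 CPM in shUHRF1 PMA and 23.2 and 14.003 CPM in shNC PMA (log2 fold change 1.95, SE 0.30, edgeR adjusted p = 0.00462). PDK4, which keeps pyruvate out of the mitochondrion, had 56 counts over the shUHRF1 PMA libraries and none over the shNC PMA libraries, at least 19.2-fold higher at a floor of 3 counts over the group. ANGPTL4, a lipoprotein lipase inhibitor, changed by 2.51, the cholesterol exporter ABCA1 by 1.57 and the carnitine transferase CPT1A by 0.79. NPC1, which moves cholesterol out of lysosomes, was the member that fell, by 0.94 on the log2 scale. These lipid genes did not set shUHRF1 apart from the other hairpin lines in one direction. FABP4 had 164 and 137 CPM in shDNMT1 PMA and 2106 and 1466 CPM in shDNMT3B PMA, and the shUHRF1 level was lower than their mean (log2 fold change −2.85, adjusted p = 5.62e-05). CD36 had 372 and 435 CPM in shDNMT1 PMA and 463 and 455 CPM in shDNMT3B PMA, also above shUHRF1 PMA (log2 fold change −1.34, edgeR adjusted p = 0.000490). ABCA1 was higher in shUHRF1 PMA than that mean, by 1.65 (edgeR adjusted p = 0.00545). Of the 26 genes, 2 were higher and 5 lower in that comparison. PLIN2, CD36 and PDK4 kept their call in all 4 fits without one library, and ABCA1, ANGPTL4, FABP4, CPT1A and NPC1 lost it in at least one.

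Sugar metabolism and genes induced by low oxygen rose in part, where 2.04% of all genes rose and 1.65% fell (block, 8.35% and 6.88%). Of 32 tested, 8 were higher and 2 were lower, with a list median of 0.33, the block called 12 and 2, and fits without one library called 1 to 3 higher. PFKFB4, which makes the activator of phosphofructokinase, had 431 and 536 CPM in shUHRF1 PMA and 157 and 189 CPM in shNC PMA (log2 fold change 1.48, SE 0.17, edgeR adjusted p = 0.000618). It was also higher than in the shDNMT1 PMA and shDNMT3B PMA libraries, which had 233, 223, 164 and 162 CPM (log2 fold change 1.33, adjusted p = 7.78e-05). P4HA1, a collagen prolyl hydroxylase, changed by 1.16, the glucose transporter SLC2A3 by 1.18, the mitophagy receptor BNIP3 by 1.10, LDHA by 0.90, NDRG1 by 0.85 and HK1 by 0.68. HK2 and VEGFA, which the list also holds, fell by 0.78 and 0.84 on the log2 scale. Of these, PFKFB4 kept its call in every fit without one library. SLC2A5, the fructose transporter and no member of the list, had 25.3 and 22.1 CPM in shUHRF1 PMA and 5.10 and 2.89 CPM in shNC PMA (log2 fold change 2.55, SE 0.24, adjusted p = 0.000147), and MIR210HG, host of the hypoxia microRNA miR-210, changed by 3.05 from a low level.

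**Figure D3:**
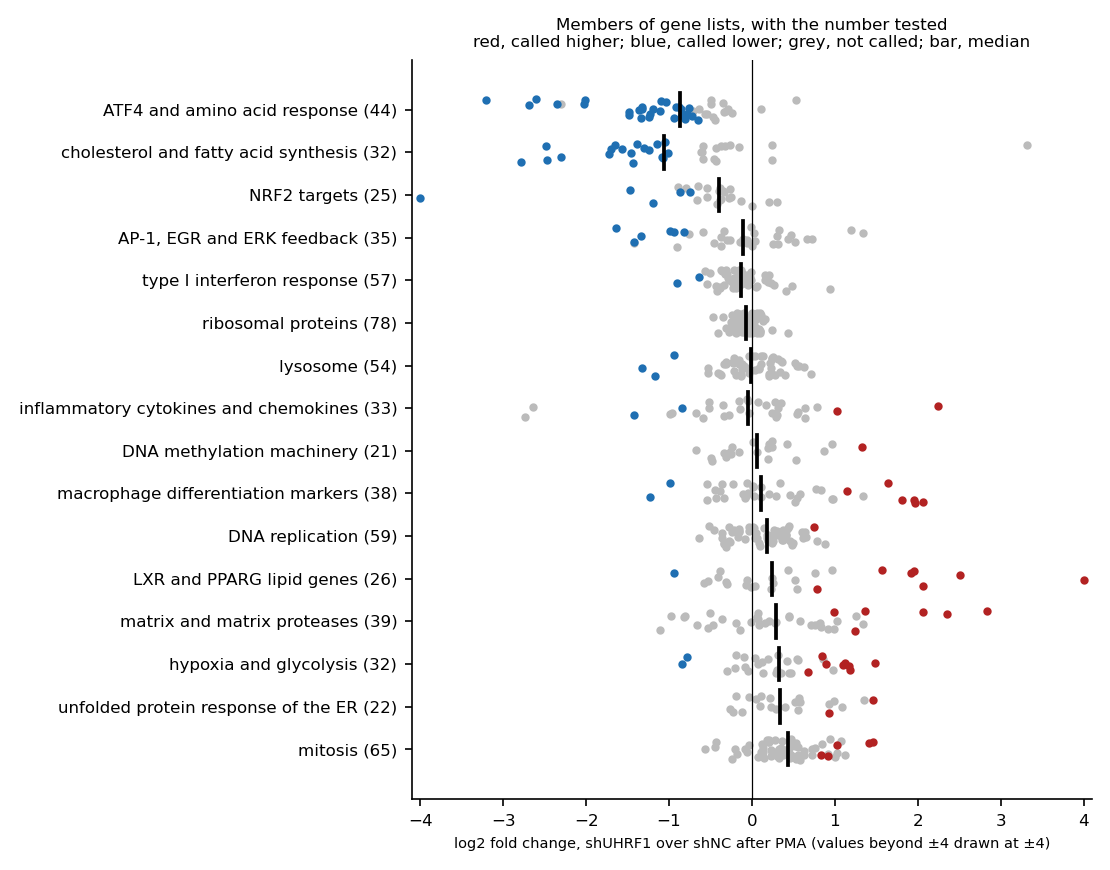
Log2 fold change of shUHRF1 over shNC after PMA (horizontal axis) for each tested member of 16 gene lists, with the number tested in brackets, red for called higher, blue for called lower, grey for not called, a bar at the median and values beyond ±4 drawn at ±4. The ATF4 and cholesterol lists lie left of 0 with medians of −0.87 and −1.06, and ribosomal proteins are gathered between −0.47 and 0.43.

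The question the study put to these lines was whether they differentiate more readily. Of 38 macrophage differentiation markers tested, 6 were higher and 2 were lower, where 2.04% and 1.65% of all genes were, with a list median of 0.11. The block called 13 and 4, where it called 8.35% and 6.88% of all genes, and fits without one library called 1 to 4 higher. CD14, the LPS co-receptor used as a surface marker, had 18.96 and 10.2 CPM in shUHRF1 PMA and 4.26 and 4.04 CPM in shNC PMA (log2 fold change 1.81, SE 0.39, edgeR adjusted p = 0.0256). On the CPM scale the shUHRF1 PMA libraries differed from each other by more than the lower of them differed from shNC PMA. Both lay above both shNC PMA libraries, and the edgeR adjusted p with the block was 8.32e-06. Replicate 1 was also the higher in shDNMT1 PMA (3.58 and 1.85 CPM) and shDNMT3B PMA (17.3 and 9.50 CPM). The CD14 call was lost in at least one fit without one library. ITGAM, which encodes CD11b, had 175 and 237 CPM in shUHRF1 PMA and 194 and 215 CPM in shNC PMA, and these ranges overlapped (log2 fold change 0.01, adjusted p = 0.999).

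MERTK, which binds apoptotic cells, had 125 and 161 CPM in shUHRF1 PMA and 43.0 and 48.2 CPM in shNC PMA (log2 fold change 1.65, SE 0.26, edgeR adjusted p = 0.00510). The hemoglobin scavenger receptor CD163 changed by 1.14 and the Fc receptor FCGR3A by 1.97, while the transcription factor EGR2 changed by −0.98 and the complement receptor VSIG4 by −1.23. RGS1 differed by 0.11 (adjusted p = 0.939) and MMP9 by 0.83 (adjusted p = 0.379). SPIB had a log2 fold change of 2.52 at no more than 0.962 CPM (adjusted p = 0.151, and 0.0131 with the block) and SYTL1 one of −1.41 (adjusted p = 0.403). Among other myeloid surface proteins, the aminopeptidase ANPEP (CD13), the most abundant gene called, had 4520.4 and 4359 CPM in shUHRF1 PMA and 1808 and 1661 CPM in shNC PMA (log2 fold change 1.36, SE 0.19, adjusted p = 0.00234). The NAD-consuming enzyme CD38 had 15.3 and 14.04 CPM in shUHRF1 PMA and 3.84 and 3.68 CPM in shNC PMA, a change of 1.96 (adjusted p = 5.38e-05). CD38 also had 15.1 and 15.4 CPM in shDNMT1 PMA and 13.8 and 12.3 CPM in shDNMT3B PMA. Against the mean of these lines its log2 fold change in shUHRF1 PMA was 0.05 (edgeR adjusted p = 0.850). ANPEP exceeded that mean by 1.85 (edgeR adjusted p = 1.36e-05). Of the called genes in this paragraph only CD38 kept its call in all 4 fits without one library.

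Inflammatory cytokines differed one by one, where 2.04% of all genes rose and 1.65% fell (block, 8.35% and 6.88%). Of 33 tested, 2 were higher and 2 were lower, with a median of −0.05 (6 and 7 with the block), and fits without one library called 0 to 2 higher and 0 lower. CSF3 kept its call in 2 of these 4 fits, CCL4 in 1 and CSF1 in 0. The granulocyte factor CSF3 had 14.8 and 16.5 CPM in shUHRF1 PMA and 3.57 and 3.03 CPM in shNC PMA (log2 fold change 2.24, SE 0.28, edgeR adjusted p = 0.00472), and the chemokine CCL4 changed by 1.03. CSF1, the macrophage growth factor, had 777 and 848 CPM in shUHRF1 PMA and 2186 and 2154 CPM in shNC PMA (log2 fold change −1.42, SE 0.27, adjusted p = 0.0124). IL1B had 4162 and 3321 CPM in shUHRF1 PMA and 2599 and 2205 CPM in shNC PMA, a log2 fold change of 0.64 with an adjusted p of 0.180, and 0.00521 with the block. TNF had 8.15 and 10.4 CPM in shUHRF1 PMA and 10.9 and 16.96 CPM in shNC PMA (log2 fold change −0.59, adjusted p = 0.441). IL6 was too low to test, with 3 counts over the shUHRF1 PMA libraries and 11 over the shNC PMA libraries, a 3.57-fold difference whose 95% counting interval ran from 0.944 to 19.95.

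While the list median of these cytokines against shNC PMA was −0.05, more of them were called against the other hairpin lines. There, 20 of the 33 were higher in shUHRF1 PMA (5.5% of all genes) and 2 were lower, with a median log2 fold change of 1.42, and fits without one library called 16 to 21 higher. IL1B had 4162 and 3321 CPM in shUHRF1 PMA, against 296 and 247 CPM in shDNMT1 PMA and 1000.3 and 941 CPM in shDNMT3B PMA (log2 fold change 2.87, edgeR adjusted p = 3.58e-06). CXCL1, a neutrophil chemoattractant, had 147 and 122 CPM in shUHRF1 PMA, against 9.75 and 8.07 CPM in shDNMT1 PMA and 26.8 and 21.2 CPM in shDNMT3B PMA (log2 fold change 3.20, adjusted p = 5.62e-07). In shNC PMA CXCL1 stood at 118 and 111 CPM, close to shUHRF1 PMA. The IL1B levels of shNC PMA given above also lay above those of shDNMT1 PMA and shDNMT3B PMA. PTGS2 (COX-2), the EGF receptor ligand AREG and the hormone STC1 differed from the other hairpin lines by 3.63, 3.12 and 4.93. AREG had 92.3 and 75.1 CPM in shUHRF1 PMA and 50.9 and 49.3 CPM in shNC PMA, with an adjusted p of 0.0765, and 0.00121 with the block. STC1 was also called against shNC PMA, at 71.3 and 69.5 CPM in shUHRF1 PMA and 31.2 and 29.1 CPM in shNC PMA (log2 fold change 1.22, adjusted p = 0.0139).

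Some matrix proteases and matrix proteins rose. Of 39 tested, 6 were higher (2.04% of all genes) and 33 were not called. The block called 13 higher and 5 lower, against 8.35% and 6.88% of all genes, and fits without one library called 2 to 4 higher. PLAU (urokinase) had 82.8 and 81.1 CPM in shUHRF1 PMA and 32.7 and 36.4 CPM in shNC PMA (log2 fold change 1.25, SE 0.14, edgeR adjusted p = 0.000637). Its inhibitor SERPINB2 (PAI-2) had 20.7 and 23.8 CPM in shUHRF1 PMA and 3.73 and 4.98 CPM in shNC PMA (log2 fold change 2.36, SE 0.45, adjusted p = 0.0138). MMP19 changed by 1.36, the neutrophil collagenase MMP8 by 2.06, ADAMTS1 by 2.83 and COL1A1 by 0.98. PLAU and MMP19 kept their call in all 4 fits without one library.

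TGFB3, a TGF-beta ligand, had 22.3 and 23.1 CPM in shUHRF1 PMA and 1.84 and 1.66 CPM in shNC PMA (log2 fold change 3.69, SE 0.32, edgeR adjusted p = 8.73e-05). LOXL4, a collagen cross-linking oxidase, had 3.68 and 3.48 CPM in shUHRF1 PMA and 0.105 and 0.144 CPM in shNC PMA (log2 fold change 4.79, SE 0.59, adjusted p = 0.000863). The libraries of the groups were far apart for both. CEMIP, which degrades hyaluronan, changed by 3.46, and the secreted proteins CRISPLD2 and SSC5D by 3.73 and 3.84. The other large rises by the same rule were IGLON5 (3.76), LGI2 (3.16), the MHC class I gene HLA-F (3.09), the chemokine receptor CXCR2 (2.99) and the EGF-family ligand EPGN (2.95). CXCR2 had only 1 and 3 counts in the shNC PMA libraries, and EPGN had 0.263 and 0.217 CPM there, so the size of these rises is uncertain. SLC1A1, a glutamate transporter, had 46 counts over the shUHRF1 PMA libraries and 2 over the shNC PMA libraries, a 23.6-fold difference with a 95% counting interval from 6.17 to 201. HLA genes share sequence, so the reads of HLA-F may be divided with its relatives. TGFB3, LOXL4, CRISPLD2, IGLON5 and HLA-F kept their call in all 4 fits without one library.

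The largest falls outside the metabolic lists were those of immune and signaling genes. CCR7, the receptor that guides dendritic cells to lymph nodes, had 8.26 and 8.90 CPM in shUHRF1 PMA and 55.4 and 45.1 CPM in shNC PMA (log2 fold change −2.55, SE 0.28, edgeR adjusted p = 0.000346). It was also low in the other hairpin lines, at 18.4 and 12.4 CPM in shDNMT1 PMA and 6.28 and 3.69 CPM in shDNMT3B PMA. Against their mean it differed by −0.04 (edgeR adjusted p = 0.963). BATF3, a dendritic cell transcription factor, changed by −1.64, and by −0.89 against that mean (edgeR adjusted p = 0.0470). These are the called members of the dendritic list whose summed level is given above. LY9 and CD48 of the SLAM family changed by −3.19 and −2.95, the cytokine IL24 by −2.83, the unconventional myosin MYO1D by −3.62, the inflammasome-related gene NLRP12 by −2.37 and the autophagy-linked DEPP1 by −2.63. HGD, which breaks down tyrosine, had 1.75 and 1.60 CPM in shUHRF1 PMA and 9.78 and 7.58 CPM in shNC PMA (log2 fold change −2.37). CCR7, DEPP1 and HGD kept their call in every fit without one library.

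Immediate early genes and feedback regulators of ERK signaling are induced by PMA through protein kinase C. They fell in part, where 1.65% of all genes were lower and 2.04% higher (block, 6.88% and 8.35%). Of 35 tested, 6 were lower and 29 were not called, the block called 12 lower and 3 higher, and fits without one library called 2. ATF3 had 257 and 234 CPM in shUHRF1 PMA and 618 and 624 CPM in shNC PMA (log2 fold change −1.34, SE 0.17, edgeR adjusted p = 0.00103). DUSP10, a MAP kinase phosphatase, changed by −0.95, FOSB by −1.42 and EGR1 by −0.82. SGK1, an abundant kinase, changed by −1.08. ATF3 and DUSP10 were the ones that kept their call in all 4 fits without one library.

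Regulators that the study drew attention to, and other groups, held single called members. Of 58 regulators of GTPases 2 rose and 2 fell, where 2.04% and 1.65% of all genes did. The Ras exchange factor RASGRP4 (1.32) and ARHGAP4 (0.83) rose, and ARHGAP31 (−1.05) and RGS16 (−1.02) fell. With the block 10 were higher and 4 lower, where 8.35% and 6.88% of all genes were. Of 67 DNA repair genes 3 were called higher, against 2.04% of all genes, and 6 with the block, against 8.35%, while fits without one library called 0. These were the polymerase POLQ, the recombination factor RAD54L and PARP3, and PARP3 had 7.53 and 7.23 CPM in shUHRF1 PMA and 3.42 and 4.48 CPM in shNC PMA. In the NF-kB list the kinase MAP3K8 (TPL2) had 21.8 and 23.8 CPM in shUHRF1 PMA and 5.94 and 7.80 CPM in shNC PMA (log2 fold change 1.73, SE 0.23, edgeR adjusted p = 0.00125), the inflammasome sensor NLRP3 changed by 0.72 and the signaling adaptor TRAF1 by −1.08. The endothelial and myeloid surface proteins THBD (thrombomodulin) and CD93 changed by 1.12 and 1.41, and both also exceeded the other hairpin lines, by 2.31 and 2.49 (adjusted p = 3.40e-06 and 5.62e-07). In the lysosome list, of 54 genes, the protease LGMN (−1.32), the ganglioside activator GM2A (−1.16) and NPC1 were lower, against 1.65% of all genes.

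Some called genes belong to lists kept for DNA methylation or for other cell types. GRB10, an imprinted adaptor of insulin signaling, had 4.81 and 6.47 CPM in shUHRF1 PMA and 16.7 and 14.9 CPM in shNC PMA (log2 fold change −1.49, SE 0.19, edgeR adjusted p = 0.00109), and no other of 16 imprinted genes was called. PRAME, a germline antigen expressed in leukemia, changed by 0.60 and was the called member of 13 germline genes tested. The myeloid transcription factor MEF2C changed by 0.88 and the MHC class II gene HLA-DPB1 by 1.47. CD79B of the lymphoid list changed by 1.75 and PDGFRB of the fibroblast list by 1.33, each at no more than 4.45 CPM. MAP3K8, CD93 and GRB10 kept their call in all 4 fits without one library, and the other called genes of these groups did not.

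Chaperones of the secretory pathway rose in part, where 2.04% of all genes were higher (block, 8.35%). Of 22 genes of the unfolded protein response of the endoplasmic reticulum, 2 were higher, 11 with the block, and fits without one library called 1. PDIA4, a disulfide isomerase, had 203 and 169 CPM in shUHRF1 PMA and 73.2 and 62.2 CPM in shNC PMA (log2 fold change 1.46, SE 0.20, edgeR adjusted p = 0.00195). HSP90B1 (GRP94) had 1455 and 1059.5 CPM in shUHRF1 PMA and 772 and 553 CPM in shNC PMA (log2 fold change 0.92, SE 0.22, adjusted p = 0.0413). PDIA4 kept its call in every fit without one library. Both chaperones rose while DDIT3 and ATF4, of the other arm of the stress response, fell.

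Cell-cycle genes differed by line. Of 65 mitosis genes, 5 were higher in shUHRF1 PMA than in shNC PMA, against 2.04% of all genes (block, 8.35%). These were TTK, CDC20, KIF20A, AURKB and NCAPG, and the list median was 0.43. The block called 14 higher, and fits without one library called at most 1. CDC20, which switches on the ubiquitin ligase that starts anaphase, had 13.3 and 11.9 CPM in shUHRF1 PMA and 7.25 and 6.86 CPM in shNC PMA (log2 fold change 0.84, SE 0.17, edgeR adjusted p = 0.0187). It had 50.2 and 40.1 CPM in shDNMT1 PMA, 64.0 and 62.8 CPM in shDNMT3B PMA, and 429 and 411 CPM in the shUHRF1 DMSO libraries. Against the other hairpin lines in PMA, 57 of the 65 were lower in shUHRF1 PMA (5.75% of all genes), with a median of −1.60, and fits without one library called 46 to 55. For DNA replication 38 of 59 were lower in that comparison with a median of −0.90, while against shNC PMA the ribonucleotide reductase subunit RRM2, at 0.74, was the called member.

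**Figure D4:**
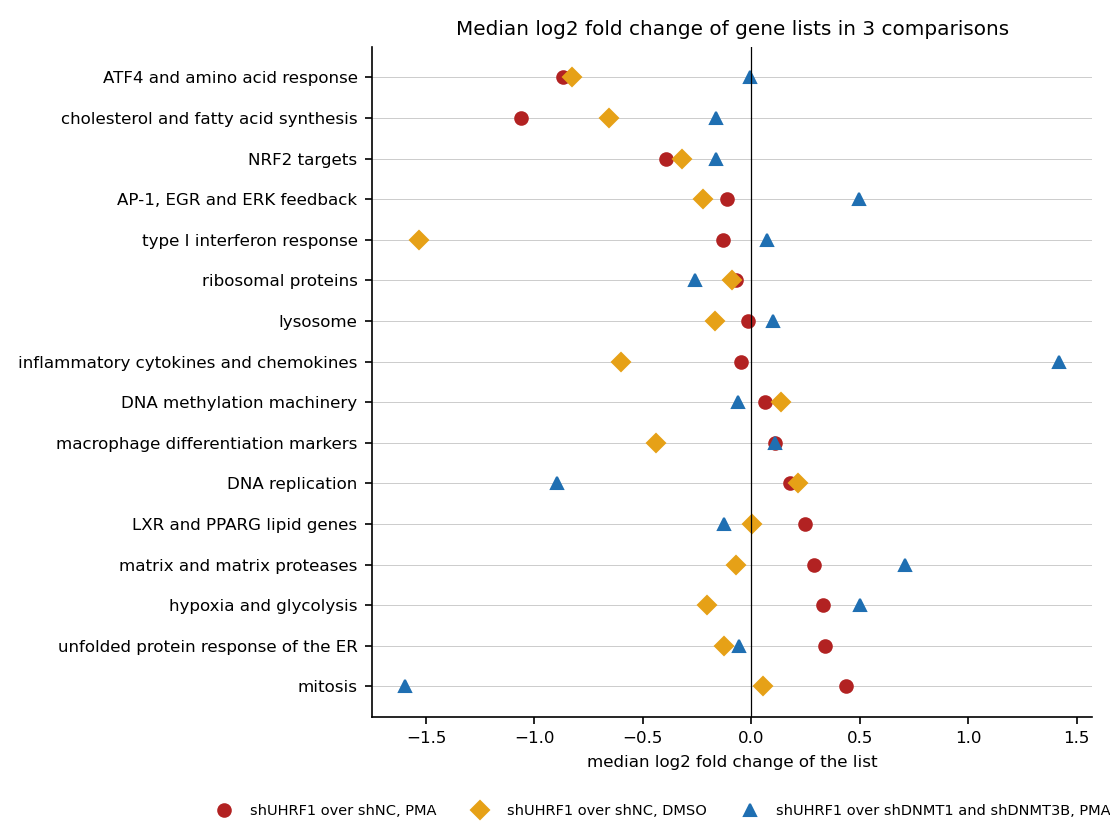
Median log2 fold change (horizontal axis) of 16 gene lists for shUHRF1 over shNC in PMA (circles), shUHRF1 over shNC in DMSO (diamonds) and shUHRF1 over the mean of shDNMT1 and shDNMT3B in PMA (triangles). The circles and triangles share the shUHRF1 PMA libraries, the ATF4 median is −0.87 in PMA and −0.83 in DMSO, and the interferon median is −0.13 in PMA and −1.53 in DMSO.

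The DMSO libraries, which share no library with the PMA comparison, show which differences were there without PMA. Of the 265 genes lower in shUHRF1 PMA, 221 (83.4%) were also negative in DMSO, against 54.0% of all genes, and 52 were called there, where 1.15% of all genes were lower. Of the 336 genes higher in shUHRF1 PMA, 173 (51.5%) were also positive in DMSO, against 44.8% of all genes, and 5 were called there, where 0.17% were higher. All 28 lower members of the ATF4 list and all 18 of the cholesterol list had a negative value in DMSO as well. One of these libraries, shNC DMSO replicate 1, stood apart. Its 15 erythroid markers summed to 492 CPM, led by HBA2 and HBB at 184 and 232 CPM, against 0 CPM in shNC DMSO replicate 2 and 0 and 0.0951 CPM in the shUHRF1 DMSO libraries. Without it, 222 of the 265 were negative in DMSO and 31 were called, and 181 of the 336 were positive and 0 were called. Fits without any one DMSO library called 23 to 39 of the 265 and 0 to 4 of the 336. PSAT1 had 29.8 and 46.5 CPM in shUHRF1 DMSO and 193 and 185 CPM in shNC DMSO (log2 fold change −2.31, edgeR adjusted p = 5.20e-05).

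A test of the PMA difference against the DMSO difference called 122 genes with a more positive value in PMA (0.739%) and 18 with a more negative one (0.109%), and with the block 963 (5.84%) and 392 (2.38%). Without shNC DMSO replicate 1, and without the block, the counts were 49 and 4. Fits that left out one of the 8 libraries called between 7 (without shNC PMA replicate 2) and 98 (without shUHRF1 DMSO replicate 2) more positive genes. DHCR7 fell further in PMA than in DMSO, by −1.30 (SE 0.26, adjusted p = 0.0397), and had 12.9 and 11.3 CPM in shUHRF1 DMSO and 26.5 and 28.3 CPM in shNC DMSO. The difference was more positive in PMA for PLIN2 and CD36, by 1.22 and 1.44 (SE 0.25 and 0.29, adjusted p = 0.0412 and 0.0415). The calls of DHCR7, PLIN2 and CD36 by this test did not hold in every fit without one library. For PFKFB4 the difference was more positive by 1.98 (SE 0.25, adjusted p = 0.00554), and its log2 fold change in DMSO was −0.50 (adjusted p = 0.222). For STC2, a secreted glycoprotein of the ATF4 list, the fall was smaller in PMA than in DMSO. STC2 had 2.21 and 1.74 CPM in shUHRF1 PMA and 5.05 and 4.26 CPM in shNC PMA, whereas in DMSO it had 0.581 and 0.666 CPM in shUHRF1 and 11.7 and 10.6 CPM in shNC. Its difference between PMA and DMSO was 2.92 (SE 0.34, adjusted p = 0.00551).

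Interferon-stimulated genes were the list with the most members called by this test. In PMA 2 of 57 type I interferon response genes were lower in the libraries labelled shUHRF1, against 1.65% of all genes. These were RSAD2 at −0.90 and IFIT2 at −0.63, and the list median was −0.13. The block called 9 lower and 2 higher, where it called 6.88% and 8.35% of all genes. In DMSO 45 of the same 57 were lower, with a median of −1.53, and 30 to 38 were in fits without one DMSO library (37 without shNC DMSO replicate 1). The difference itself passed the test, in the positive direction, for 27 of 57, for 52 with the block, where 6.01% of all genes passed, and for 4 to 19 in fits without one library (19 without shNC DMSO replicate 1). OAS2, which makes the activator of RNase L, had 473 and 470 CPM in shUHRF1 PMA and 655 and 578 CPM in shNC PMA (log2 fold change −0.39, SE 0.16, edgeR adjusted p = 0.244, and 0.0404 with the block). In DMSO it had 39.0 and 48.2 CPM in shUHRF1 and 240 and 236 CPM in shNC (log2 fold change −2.45, adjusted p = 2.16e-05).

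IFI44 showed the largest such difference of the interferon genes named here, 2.88 (SE 0.27, adjusted p = 0.00162). IFI44 had 332 and 285 CPM in shUHRF1 PMA and 232 and 210 CPM in shNC PMA, whose adjusted p was 0.196, and 0.0101 with the block. In DMSO it had 12.6 and 12.03 CPM in shUHRF1, 1.68 and 1.30 CPM in shDNMT1, 1.11 and 1.22 CPM in shDNMT3B and 76.9 and 53.6 CPM in shNC. The shNC DMSO libraries thus lay above those of all 3 other lines for this gene, as they did for OAS2, at 7.17 and 8.47 CPM in shDNMT1 and 10.9 and 9.87 CPM in shDNMT3B. For the antiviral GTPase MX2 the difference was 2.13, for OAS3 1.90, for EPSTI1 2.16 and for the exonuclease ISG20 1.62. The promoter element bound by the interferon-activated ISGF3 complex, searched on both strands as a pair of GAAA tetramers with 2 bases between them, was found in 29 of 46 promoters of the list (63.0%), against 3.65% of 27305 promoters and 2.94% of the promoters of genes tested. The list was drawn up as interferon response genes, so this share describes the list and not a difference between these libraries. Examples from genes whose PMA and DMSO differences differed are shown as before, OAS3 at chr12:112938286-112938385 (+) and ISG20 at chr15:88638902-88639001 (+) of GRCh38.p14.
OAS3: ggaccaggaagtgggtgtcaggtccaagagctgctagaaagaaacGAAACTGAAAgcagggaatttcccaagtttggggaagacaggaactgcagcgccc
ISG20: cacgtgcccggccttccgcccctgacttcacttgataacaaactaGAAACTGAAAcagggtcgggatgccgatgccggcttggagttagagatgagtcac

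**Figure D5:**
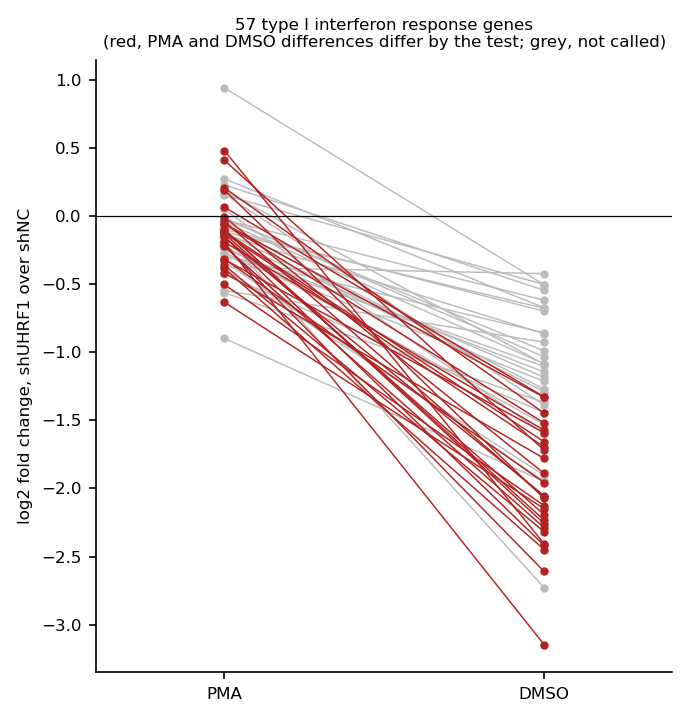
Log2 fold change of shUHRF1 over shNC (vertical axis) for 57 type I interferon response genes in PMA (left) and DMSO (right), with a line for each gene, red where the difference between the 2 values passed the test. The PMA values gather around the median of −0.13 and the DMSO values around −1.53.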

How the data were processed

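Poly(A) RNA of 16 THP-1 libraries was sequenced from stranded TruSeq libraries. Per the labels, the authors aligned reads to hg38 with STAR 2.4.0b and counted them per gene with HTSeq 0.6.1p1; the deposited values are whole-number counts for 60676 genes, and the strand setting is not given in the sources used here. Of these, 60357 matched a symbol in GENCODE 44. Genes were kept by edgeR's filter (minimum count 10, minimum total 15), normalized by the trimmed mean of M values and fitted with edgeR 4.0.16 (R 4.3.3) over all 8 groups by the quasi-likelihood test, with Benjamini-Hochberg adjustment over 16503 genes. Calls needed an adjusted p under 0.05 and, for counts over all genes only, a log2 fold change beyond 0.585.

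Columns were given to groups, and numbers to libraries, by the column names. Same-numbered libraries deviated together in all 28 pairs of groups (r from 0.220 to 0.508, and 0.315 for shUHRF1 PMA with shNC PMA), so the numbers were taken to pair the libraries and blocked values are given where they changed a result. Alternatives were DESeq2 1.42.0, upper-quartile factors, no filter on low counts, the replicate block, a fit of the compared libraries alone, DEGES normalization with an exact test, no fold limit, and leaving out each library; the block with a library left out, and the DMSO comparison with one left out, were added after the data were seen. Leaving a library out leaves 1 in its group, which is assumed to vary like the others.

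Genes were named by a rule: those the study names, the 15 largest changes each way with at least 1 CPM in the higher group, up to 4 per list with the smallest adjusted p, the 5 most abundant called genes each way, and up to 8 from each of the other comparisons. The 23 other list members named were chosen after their values were seen. The comparison and the 38 gene lists were chosen with earlier results of these data known. Some genes that the rule names are not reported here. Counting intervals and floors cover counting error only. The fits were tested on simulated data. Columns of every library were used.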

Additional observations from a re-analysis of the deposited data

Results flagged for a closer look

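For the genes below, the shUHRF1 minus shNC difference in PMA and that in DMSO were found to differ by the interaction term of the edgeR fit (adjusted p under 0.05), and all 26 passed it with the replicate block too. The values are differences of log2 fold changes, PMA minus DMSO. Among interferon-stimulated genes they were 2.88 for IFI44, 2.16 for EPSTI1, 2.13 for MX2, 2.06 for OAS2, 1.90 for OAS3, 1.62 for ISG20 and 1.51 for IFIT2. Among metabolic genes they were 2.48 for SLC2A5, 1.98 for PFKFB4, 1.44 for CD36, 1.22 for PLIN2 and 1.03 for NDRG1, and −1.30 for DHCR7. Among secreted proteins and matrix genes they were 5.89 for LOXL4, 2.94 for SERPINB2, 2.92 for STC2, 2.74 for TGFB3 and 1.29 for PLAU. Among surface proteins they were 3.52 for CXCR2, 1.71 for ANPEP, 1.59 for CD38 and 1.06 for CD93, and the transporter SLC1A1 had 4.41. The CXCR2 value rests on 1 and 3 counts in the shNC PMA libraries. PDIA4 had 1.68, the exchange factor RASGRP4 1.52 and the transcription factor MEF2C 1.12. Of the 26 genes, IFI44, EPSTI1, MX2, OAS2, SLC2A5, PFKFB4 and STC2 passed in each of the 8 fits that left out one library, 8 passed in 4 to 7 of them, 7 in 1 to 3, and PLIN2, DHCR7, RASGRP4 and MEF2C in none.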

How the results depend on the processing

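No alternative changed the sign of a called gene named in the report. Genes higher and lower in shUHRF1 PMA than in shNC PMA numbered 336 and 265, against 520 higher without a filter on low counts, 408 lower with DESeq2, 97 and 87 in a fit of the 4 libraries alone, and 548 and 402 with DEGES normalization and an exact test. Leaving out one library gave 53 to 112 higher and 57 to 73 lower genes. The replicate block, which uses the pairing of the library numbers, gave 947 and 673, and, with a library left out as well, 650 and 449 (shUHRF1 PMA replicate 1), 733 and 523 (shUHRF1 PMA replicate 2), 535 and 424 (shNC PMA replicate 1) and 719 and 557 (shNC PMA replicate 2). Genes more positive in PMA than in DMSO numbered 122 and more negative 18, against 309 and 99 with DESeq2, 267 and 54 without a filter, 963 and 392 with the block, 1 and 0 in a fit of the 8 libraries alone, and 7 to 98 and 0 to 10 without one library. Against the other hairpin lines the counts were 774 and 885, 1184 and 1397 with the block, and 432 to 686 and 389 to 725 without one library. The direction was not stable for ITGAM, at −0.00096 with the block, −0.000295 in the fit of the 4 libraries alone, −0.22 to 0.22 without one library, and −0.081 and −0.085 with the block and without shUHRF1 PMA replicate 2 or shNC PMA replicate 2. Nor was it for RGS1, at −0.085 to 0.33 without one library and −0.047 with the block and without shUHRF1 PMA replicate 1. Of the 121 named genes called, 39 kept their call without any one library and 105 with the block as well.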
